A study of Mus musculus with 4 samples.

Results

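The cells described here are neutrophils of the transplanted mouse lung that carried the transcripts of Fnip2, Cc2d2b and Pnpla7, called member cells below. A barcode with at least 200 genes and no more than 10% of mitochondrial transcripts counted as a neutrophil when at least 1% of its unique molecular identifiers (UMIs, which count captured RNA molecules) came from S100a8 and S100a9, which encode the calprotectin subunits, and it held at least 1 UMI of Csf3r, the receptor for granulocyte colony-stimulating factor. It also had to hold at most 2 UMIs of Ace, Adgre4 and Cd300e together, genes of nonclassical monocytes, and none of the T cell gene Cd3e or the B cell gene Cd79a. A neutrophil was a member when Fnip2, Cc2d2b and Pnpla7 gave at least 3 UMIs together and the interferon-stimulated genes Ifit1, Ifit3 and Rsad2 gave fewer than 5. By this rule 3211 of 9313 neutrophils were members (34.48%), which is 12.97% of all 24761 barcodes, and the 6102 remaining neutrophils served for comparison.

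CD45+ leukocytes were taken from left lung grafts exchanged between B6 mice, 2 h after blood flow was restored. Each graft had been kept in low-potassium dextran glucose for 60 min at 4 °C and then 45 min at 28 °C before implantation, so every group shared this cold and warm ischaemia. Right before the operation the recipient mouse was given resolvin D1 (RvD1, a mediator of the resolution of inflammation derived from an omega-3 fatty acid) into a vein, 200 ng in 200 µL of 1% ethanol, or vehicle. Leukocytes that came with the donor lung and leukocytes of the recipient were sequenced apart, which gave 4 groups: donor cells with vehicle, donor cells with RvD1, recipient cells with vehicle and recipient cells with RvD1. Each group was 1 library made from 2 pooled lungs. Genotype is labelled NA, and the sources used here give neither age nor sex. Values in sets of 4 follow the order in which the groups are named above. A group of 1 library allows no test between conditions, and every interval covers counting error only.

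Neutrophils are short-lived granulocytes that enter a reperfused lung within hours and store proteases and antimicrobial proteins in granules. FNIP2 binds folliculin (FLCN), and the complex activates the GTPase subunit RagC or RagD on the lysosome. Active RagC lets the kinase mTORC1 hold TFEB and TFE3, transcription factors of lysosomal genes, in the cytoplasm. PNPLA7 is a patatin-like lipase that cleaves lysophosphatidylcholine, and CC2D2B is related to CC2D2A, a protein of the ciliary transition zone, while neutrophils carry no cilium.

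Of the 10 neutrophil markers, S100a8, S100a9 and Csf3r chose the cells, so their levels were set by the rule. The other 7 were each at 243 CPM or more (UMIs of a gene scaled to the class's total, as counts per 1000000) in the members of all 4 libraries. Among them the lectin receptor gene Clec4d was at 3830, 3060, 3720 and 2980 CPM, against 3270, 3150, 3200 and 2890 CPM in other neutrophils. The decoy receptor gene Il1r2 was at 1880, 1660, 2680 and 3050 CPM against 2430, 2310, 2970 and 3540 CPM. All 10 summed to 75000, 99900, 119000 and 111000 CPM in members against 91100, 117000, 142000 and 129000 CPM in others. Only 1, 0, 1 and 1 of the 10 were higher in members. The eosinophil genes Prg2 and Epx were at 0 in the members of all 4 libraries, and T cell, B cell, red cell and epithelial markers summed to at most 18.7 CPM, with Cd3e and Cd79a at 0 by the rule. The 5 classical monocyte markers summed to 94.9, 525, 86.1 and 155 CPM in members against 82.7, 141, 111 and 72.1 CPM in others, and the 7 alveolar macrophage markers to 254, 515, 15.4 and 26.7 CPM against 503, 131, 9.32 and 23.1 CPM. Chil3, which also stands in the late neutrophil granule list, gave 224, 500, 7.74 and 21.6 CPM of the members' alveolar macrophage sum, and each of the other 6 markers at most 9.43 CPM. Natural killer cell markers summed to 172, 83.5, 38.6 and 188 CPM against 126, 94, 104 and 83.4 CPM, and endothelial markers to 96.2, 35.8, 42 and 35.3 CPM against 74, 25.2, 31.5 and 16.2 CPM. Basophil and mast cell markers summed to 0.74, 2.95, 0 and 39.6 CPM in members against 0, 7.79, 0.217 and 2.26 CPM in others, with all 5 higher in members of the RvD1 recipient library. Platelet markers gave 13.9, 15.5, 6.42 and 4.32 CPM against 4.91, 7.92, 5.53 and 7.57 CPM. Nonclassical monocyte markers gave 274, 302, 224 and 349 CPM against 368, 327, 279 and 295 CPM, nearly all from Treml4 and Nr4a1, while Ace, Adgre4 and Cd300e, which the rule limits, were each at most 1.85 CPM in members. The part of these transcripts in the results below was not tested, except where values without such cells are given. At least 1 UMI of 9 monocyte and macrophage genes (Ccr2, F13a1, Vcan, Fn1, Ear1, Ear2, Marco, Mrc1 and Fabp4) was found in 53, 22, 31 and 9 members, or 6.14%, 4.92%, 1.88% and 3.59% of them. Member cells and other neutrophils had nearly the same depth. The members' median was 5401, 5037, 5299.5 and 4947 UMIs per cell, against 5284, 5172, 5502 and 4931 UMIs in the others, and the median numbers of genes, 1450, 1394, 1409 and 1409, were as near to the others' 1449, 1425, 1441 and 1385.

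Member cells made up most neutrophils of the vehicle donor library and few of the RvD1 recipient library. They numbered 863 of 1316 neutrophils with vehicle and 447 of 1836 with RvD1 among donor cells, and 1650 of 3231 and 251 of 2930 among recipient cells. The shares were 65.58% (exact 95% interval 62.94 to 68.15%), 24.35% (22.4 to 26.38%), 51.07% (49.33 to 52.81%) and 8.567% (7.578 to 9.639%). The share was 2.69 times as high with vehicle as with RvD1 among donor cells and 5.96 times among recipient cells, and both vehicle libraries lay above both RvD1 libraries. Counting used Cell Ranger 6.1.1 for vehicle and 7.0.1 for RvD1, so version and treatment cannot be told apart. How either run treated intron reads is not stated in the sources used here.

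**Figure D1:**
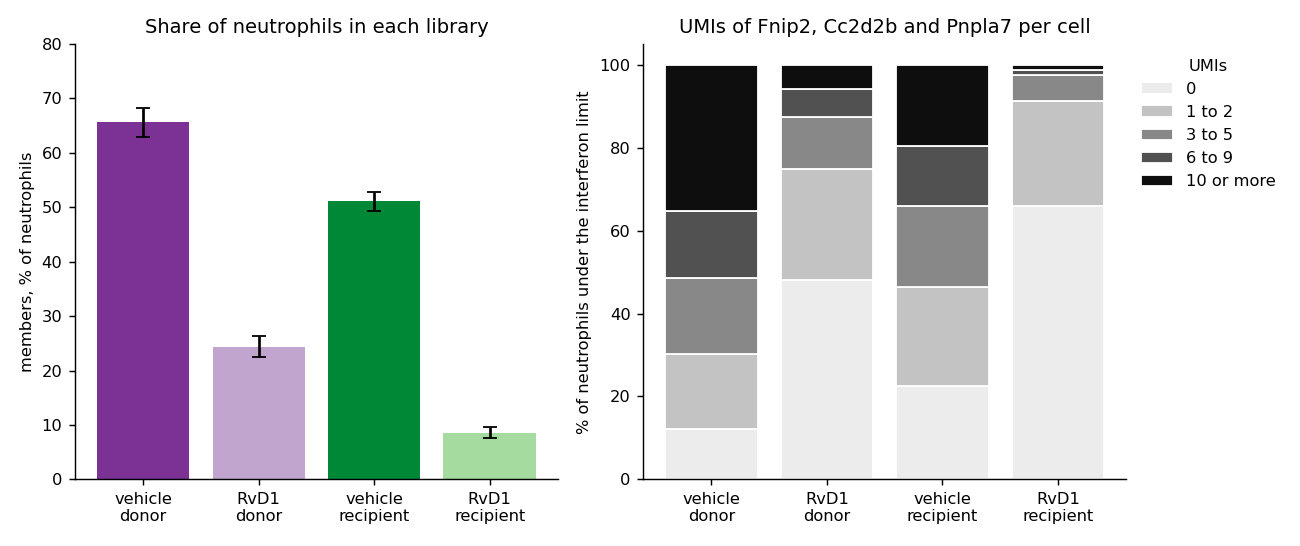
Left, share of neutrophils that are member cells in each of the 4 libraries, in percent, with exact 95% binomial intervals: the vehicle libraries stand at 65.58% (donor) and 51.07% (recipient) and the RvD1 libraries at 24.35% and 8.567%. Right, neutrophils under the interferon limit divided by their UMIs of Fnip2, Cc2d2b and Pnpla7, from 0 (lightest) to 10 or more (darkest), in percent, with the darkest class widest in the vehicle donor library.

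The order of the libraries was the same at equal depth. After each neutrophil was thinned to 2000 UMIs, at least 1 UMI of the 3 genes was found in 73.3%, 35.1%, 60.5% and 19.4% of neutrophils, with 9, 31, 2 and 58 shallower cells left out. T cells, handled the same way, gave 16.7%, 12.3%, 18.2% and 14.5%, and B cells 21.8%, 12.3%, 14.2% and 14.6%. The neutrophil share was above both lymphocyte shares in each library, and nearest to them in the RvD1 recipient library. Cells with over 2 UMIs of the nonclassical monocyte genes Ace, Adgre4 and Cd300e gave 35.8%, 24.6%, 40.6% and 17.8%. These were also below the neutrophil shares, but close to them in the RvD1 recipient library. They too were higher with vehicle than with RvD1 of the same origin, so this order was not particular to neutrophils. Without thinning, 3 or more UMIs were held by 16.2%, 4.53%, 11.3% and 5.89% of T cells, at median depths of 9812.5, 8301, 9034 and 7658 UMIs, against 70.1%, 25.4%, 54.4% and 8.74% of neutrophils at 5365, 5131.5, 5401 and 4931 UMIs. The cells with nonclassical monocyte genes gave 48.4%, 29.9%, 47.4% and 16.9%, above the neutrophils in both RvD1 libraries. Their median depths were greater, at 15142, 14123, 13174 and 10235 UMIs. T cell UMIs came mainly from Pnpla7, at 89.6, 59, 98.8 and 77.3 CPM, while Fnip2 there reached 22.8, 9.16, 6.43 and 2.99 CPM.

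The threshold cut a range and not a separate population. Exactly 3 UMIs of the 3 genes were held by 84, 101, 245 and 98 members, and 111, 159, 322 and 197 neutrophils lay just outside with 2 UMIs. No UMI of the 3 genes was found in 155, 880, 714 and 1933 neutrophils. The median member held 10, 5, 7 and 4 UMIs of the 3 genes and the highest 95, 43, 64 and 44, so vehicle members were richer in them than RvD1 members of the same origin. The interferon limit kept out 60, 19, 107 and 5 neutrophils that met every other condition.

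Fnip2 and Pnpla7 carried most of the choice. Fnip2 (ENSMUSG00000061175, minus strand, chr3:79455974-79567796) was at 981, 687, 666 and 577 CPM in members and 148, 45.8, 102 and 15.1 CPM in other neutrophils, and a UMI of it was present in 72.8%, 69.4%, 66.1% and 63.3% of members. Pnpla7 (ENSMUSG00000036833, plus strand, chr2:24976033-25054057) was at 797, 465, 771 and 311 CPM against 203, 63.8, 155 and 52.9 CPM, and in 87.7%, 76.3%, 88.5% and 61.8% of members. Cc2d2b (ENSMUSG00000108929, plus strand, chr19:40748753-40827743) was at 250, 125, 173 and 210 CPM against 62.7, 3.96, 31.2 and 3.49 CPM, and in 29.1%, 12.1%, 20.5% and 17.9% of members. These values chose the cells and are given as a description. All 3 transcripts were seen together in 139, 10, 159 and 4 members (16.1%, 2.24%, 9.64% and 1.59%), and 18, 17, 42 and 15 members qualified on Cc2d2b alone.

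When cells were chosen with 3 UMIs of only 2 of the genes, the gene left out was mostly higher in them too. Fnip2 was at 921, 531, 577 and 239 CPM in cells chosen on Cc2d2b and Pnpla7, against 461, 155, 270 and 58.4 CPM in the rest. Pnpla7 in cells chosen on the other pair was at 759, 367, 684 and 147 CPM, against 463, 133, 381 and 72.7 CPM. Both were higher in the chosen cells of all 4 libraries, with log2 ratios of 1.00, 1.78, 1.10 and 2.04 for Fnip2 and 0.71, 1.47, 0.84 and 1.01 for Pnpla7. Cc2d2b gave 207, 36.1, 118 and 98.1 CPM against 157, 35.8, 90.9 and 15.8 CPM in cells chosen on Fnip2 and Pnpla7, and its log2 ratio in the RvD1 donor library was 0.01 (−0.35 to 0.36), so no difference was detectable there at this depth.

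Member cells were next compared with other neutrophils of the same library across all genes. Genes with a minimum of 100 UMIs in each library, and 10 expected in members, were described, and a gene was called when it was at least 1.5-fold higher or lower in all 4 libraries. The 14 genes of the rule were left out. Of 4788 genes, 82 were higher in members (1.71%) and 6 lower (0.125%). Since the rule chose the cells from the same counts, these calls describe the cells and test nothing. Cells chosen on Cc2d2b and Pnpla7 alone gave 31 higher genes, of which 28 were among the 82. Among the genes higher in members were 3 of the folliculin and MiT/TFE list and 5 of the lysosome and vacuolar ATPase list. The lower ones were interferon-stimulated genes and Nfe2, which encodes a transcription factor of blood cells.

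In the folliculin and MiT/TFE list, 3 of the 18 members described were called higher, beside 1.71% of all genes described, and 0 lower. Of the 18, 6 had a log2 ratio above 0 in all 4 libraries (33.3%, against 18.6% of all genes described). Rragc (chr4:123917446-123936997, plus strand), which encodes the RagC GTPase, was at 130, 84.9, 99.8 and 56.9 CPM in member cells and 67.9, 42.6, 40.8 and 19.5 CPM in other neutrophils. Its log2 ratios were 0.94, 0.99, 1.29 and 1.55, above 0 in every library and highest among recipient cells. Flcn itself (chr11:59791408-59810016, minus strand), the partner of FNIP2, was at 103, 50.6, 71.2 and 34.6 CPM against 60.8, 22.2, 40.7 and 13.9 CPM. Rptor, which encodes the mTORC1 subunit that binds substrates, was at 77.7, 34.3, 44.3 and 28.8 CPM against 44.5, 13.7, 24.1 and 15.9 CPM. The paralogue Fnip1 was higher in each library but not called, at 873, 516, 858 and 447 CPM against 604, 295, 490 and 219 CPM (log2 ratios 0.53, 0.81, 0.81 and 1.03). The transcription factor genes did not share one pattern. Tfeb was at 157, 126, 147 and 96.6 CPM against 80.4, 89.8, 88.8 and 78.8 CPM, while Tfe3 had log2 ratios of 0.28, −0.20, −0.05 and 0.00. Tfeb and Tfe3 were named after their values had been seen. The list's median log2 ratio was 0.03, 0.24, 0.18 and −0.01, beside −0.05, 0.05, −0.05 and 0.03 over all genes described.

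The lysosome and vacuolar ATPase list had the more uniform pattern. Of 30 members described, 5 were called higher, beside 1.71% of all genes described, and 0 lower. Of the 30, 22 had a log2 ratio above 0 in all 4 libraries (73.3%, against 18.6% of all genes described). Its median was 0.38, 0.44, 0.37 and 0.31. Hexa, the alpha subunit of the ganglioside-degrading hexosaminidase, was at 204, 96.7, 171 and 72.1 CPM in members against 103, 41.6, 83.8 and 36.5 CPM in others, with log2 ratios of 0.98, 1.22, 1.03 and 0.98. The proton pump genes Atp6v1c1 and Atp6v1h encode subunits of its cytosolic, ATP-hydrolysing sector. Atp6v1c1 was at 229, 114, 175 and 61.3 CPM in members against 123, 40.1, 82 and 29.3 CPM in others, and Atp6v1h at 235, 82.3, 211 and 75 CPM against 138, 43.2, 105 and 32.7 CPM. Ctsb, the cysteine protease cathepsin B, was also called, with log2 ratios of 0.63, 0.78, 0.76 and 0.90. Ctsd, the aspartyl protease cathepsin D, missed the call by its vehicle recipient ratio, with 1170, 860, 879 and 490 CPM against 736, 438, 586 and 283 CPM. The list was not uniform, since the membrane protein gene Lamp1 had ratios of 0.50, 0.92, 0.70 and 0.77 and its relative Lamp2 ratios of −0.10, −0.03, −0.29 and −0.19. Ctsb, Lamp1 and Lamp2 were picked after their values had been seen.

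**Figure D2:**
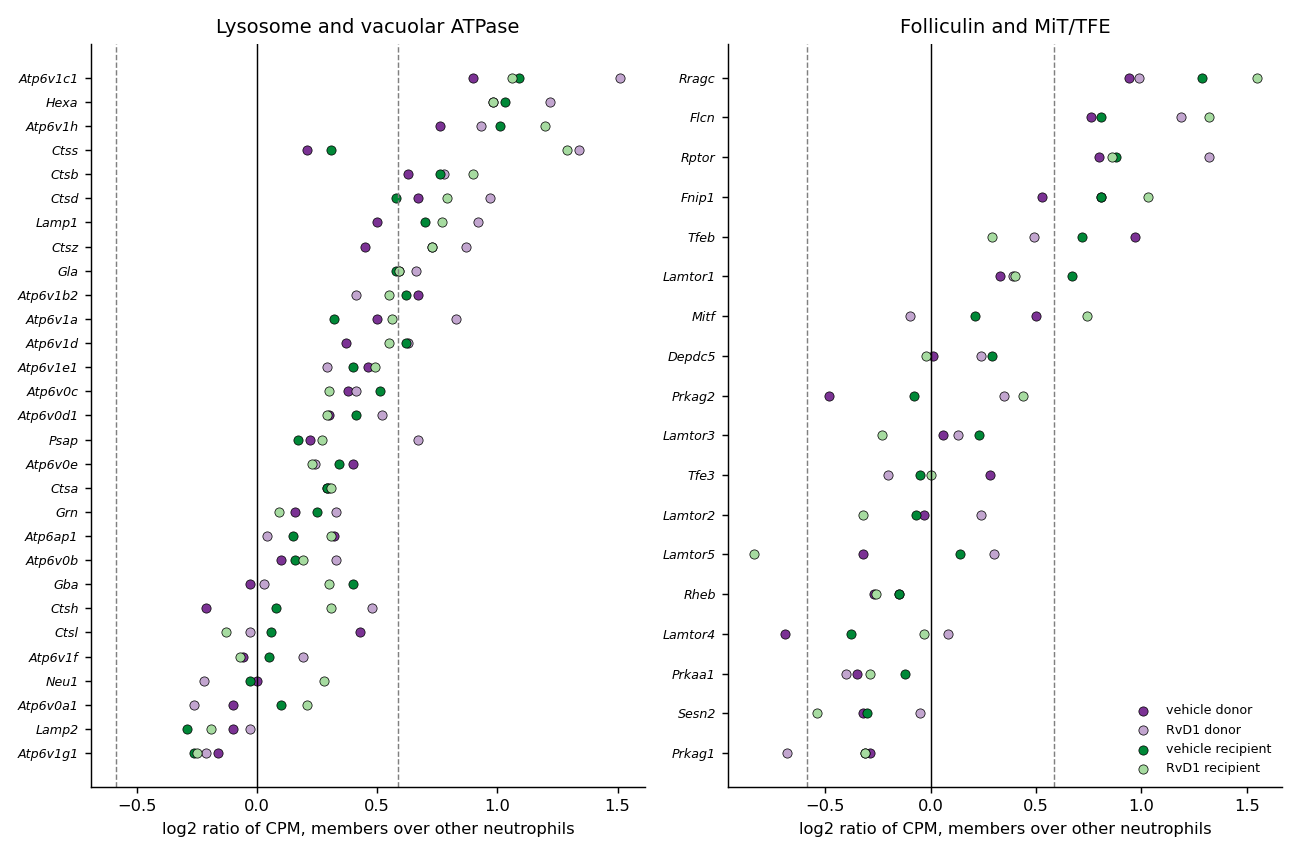
Log2 ratio of CPM, member cells over other neutrophils of the same library, for described genes of the lysosome and vacuolar ATPase list (left, with 1 gene left out) and the folliculin and MiT/TFE list (right), 1 point per gene and library, with dashed lines at 1.5-fold. Lysosomal genes lie mostly above 0, whereas the folliculin list spreads on both sides of 0 with Rragc, Flcn, Rptor and Fnip1 among its high genes.

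The genes furthest from other neutrophils, ranked by their smallest ratio over the 4 libraries, included 3 of membrane traffic, a grouping made after their values had been seen. Arfgef2 (ENSMUSG00000074582, plus strand, chr2:166805588-166898052), which encodes an activator of ARF GTPases at the trans-Golgi network and endosomes, was at 188, 196, 135 and 82.2 CPM in members. Other neutrophils held 58.1, 40.1, 53.2 and 25.3 CPM of it. The log2 ratios were 1.70 (1.45 to 1.95), 2.29 (2.09 to 2.50), 1.35 (1.2 to 1.5) and 1.70 (1.38 to 2.01), with a mean of 1.76 ± 0.39 (SD over 4 libraries). Dtnbp1, which encodes dysbindin of the BLOC-1 complex that sorts cargo to lysosome-related organelles, gave the most even ratio of the 12, at 1.10 ± 0.04. It was at 103, 106, 81.2 and 75 CPM against 49.1, 48.1, 38.4 and 34.4 CPM. Mreg, the melanosome and lysosome transport factor melanoregulin, was at 171, 95.6, 119 and 39.6 CPM against 83.4, 22.6, 46.6 and 12 CPM. Its log2 ratios of 1.03, 2.08, 1.35 and 1.72 were greater with RvD1 than with vehicle in each origin.

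Of the ranked genes, 3 act on cholesterol or diacylglycerol, again grouped after their values had been seen and not as a fixed list. Npc1, which exports cholesterol from the lysosome, was at 121, 72.7, 104 and 40.4 CPM in members and 59.6, 21.1, 43.7 and 14.6 CPM in others. Dgkz, the kinase that turns diacylglycerol into phosphatidic acid, was at 198, 149, 192 and 102 CPM against 90.2, 61.7, 93.8 and 49.9 CPM. Plcb1, a phospholipase C that makes diacylglycerol, ranked first, at 27.6, 115, 26.7 and 42.5 CPM against 4.53, 13.9, 7.81 and 10.1 CPM, but 1 cell held up to 50.8% of the members' Plcb1 UMIs in a library. With depth matched between members and others its smallest log2 ratio was 0.88 in place of 1.77, below those of Arfgef2 (1.26) and Dtnbp1 (0.98). Among called genes outside the ranking, picked after their values had been seen, were 3 of cholesterol handling. Srebf2, the transcription factor of sterol synthesis, had log2 ratios of 1.00, 1.42, 0.90 and 0.96. Soat1, which esterifies cholesterol for storage, had 1.41, 1.25, 0.76 and 0.71, and Abcg1, which exports it from the cell, had 0.68, 0.68, 0.98 and 0.95. The patatin-like lipase and lysophospholipid list that goes with PNPLA7 had 0 of 15 genes called and medians of −0.10, 0.01, 0.07 and 0.01. Plbd1, a phospholipase B-like lysosomal protein, had ratios of 0.70, 0.93, 0.77 and 0.43, and Gde1, a glycerophosphodiesterase, 0.44, 1.03, 0.54 and 0.47.

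The remaining ranked genes handle haem and iron, death signals or have no role given here. Hmox1, which encodes the haem-degrading enzyme haem oxygenase 1, was at 317, 167, 231 and 138 CPM in member cells against 160, 75.3, 106 and 38.8 CPM in other neutrophils, with 17.8% of its UMIs from 1 cell in a library. Frrs1, a ferric-chelate reductase, was at 154, 48.7, 142 and 62 CPM against 70.6, 24.7, 63 and 19.1 CPM. Dedd2, a nuclear protein with a death effector domain, was at 276, 169, 176 and 83.6 CPM against 134, 53.9, 79.4 and 31.2 CPM. Enthd1 was also ranked, at 164, 35.4, 124 and 20.9 CPM against 83.4, 11.1, 58.7 and 6.48 CPM. For Hmox1, Frrs1, Dedd2 and Enthd1 the ranges of members and others overlapped across libraries, although members were higher within each.

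**Figure D3:**
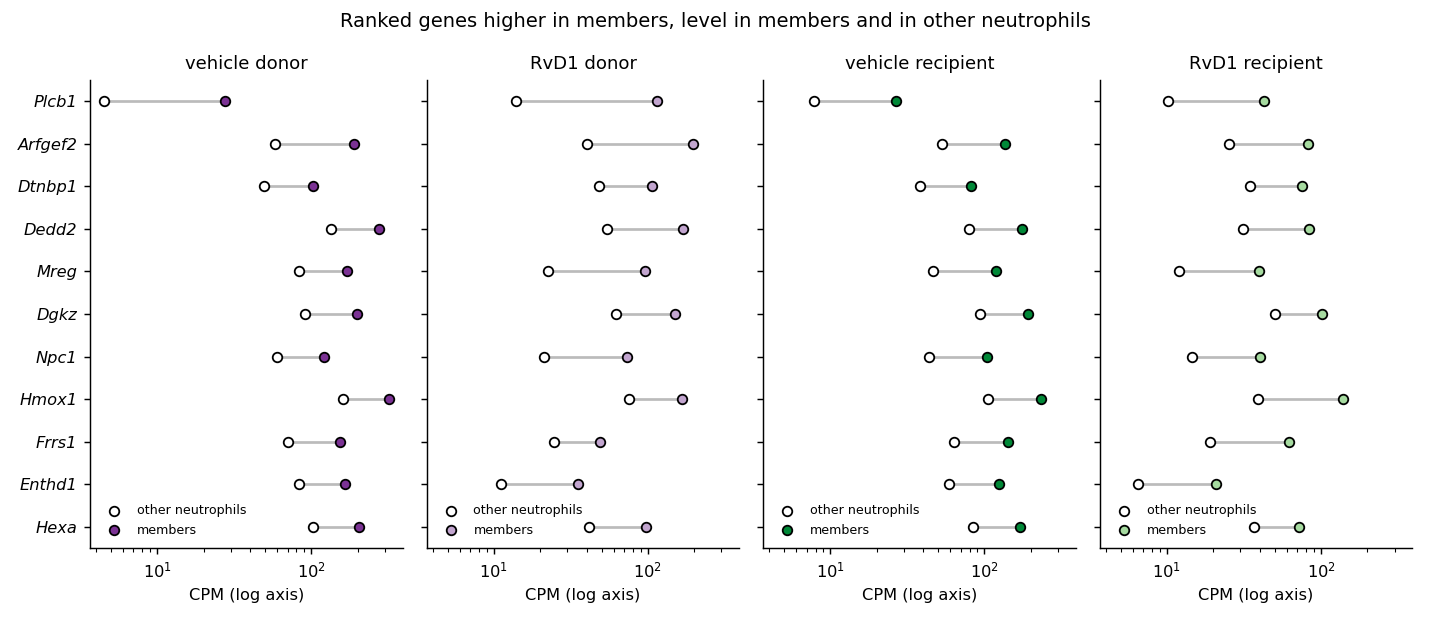
CPM, on a log axis, of ranked genes higher in member cells (filled points) than in other neutrophils (open points), 1 panel per library, with a grey line joining both values of a gene. Each filled point lies to the right of its open point, Arfgef2 for example at 188 against 58.1 CPM in the vehicle donor library.

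Promoter sequences are shown for both leading genes of the rule, for Arfgef2 as the 1 ranked gene with a match, and for Rragc as the Rag gene called. They are RefSeq sequences on GRCm38.p6, printed 5′ to 3′ on the gene's strand from 250 bases upstream towards the start, with bases inside the gene's GENCODE span left out. Capitals mark CACGTG, the core of the E-box, a letter pattern that TFEB and TFE3 are among the factors known to bind. Fnip2 is chr3:79567797-79567929 (minus strand), Pnpla7 chr2:24975783-24976032, Arfgef2 chr2:166805331-166805580 and Rragc chr4:123917183-123917432 (plus strand).
Fnip2: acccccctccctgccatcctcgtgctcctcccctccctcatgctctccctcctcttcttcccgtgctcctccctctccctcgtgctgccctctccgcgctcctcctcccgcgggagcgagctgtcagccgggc
Pnpla7: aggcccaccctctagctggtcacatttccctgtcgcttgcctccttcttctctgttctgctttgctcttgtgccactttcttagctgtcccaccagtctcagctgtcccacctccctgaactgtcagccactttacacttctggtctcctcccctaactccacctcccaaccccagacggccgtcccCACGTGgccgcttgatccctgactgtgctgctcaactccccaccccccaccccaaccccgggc
Arfgef2: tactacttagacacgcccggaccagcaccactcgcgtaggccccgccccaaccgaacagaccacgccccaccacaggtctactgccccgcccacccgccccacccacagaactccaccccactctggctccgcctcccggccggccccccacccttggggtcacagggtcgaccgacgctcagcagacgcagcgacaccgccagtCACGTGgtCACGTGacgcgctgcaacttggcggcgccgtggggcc
Rragc: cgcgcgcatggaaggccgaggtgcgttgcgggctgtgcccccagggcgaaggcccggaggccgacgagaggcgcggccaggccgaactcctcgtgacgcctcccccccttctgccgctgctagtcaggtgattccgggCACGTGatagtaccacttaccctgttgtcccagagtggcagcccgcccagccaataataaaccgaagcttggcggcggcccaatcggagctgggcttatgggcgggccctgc
The Fnip2 stretch of 133 bases held no CACGTG. In Pnpla7 it began 63 bases before the start, in Rragc 112 bases, and in Arfgef2 45 and 37 bases, where the later copy is followed by AC and preceded by GT. Over whole 300-base windows, CACGTG, which reads the same on both strands, was found for 13 of the 60 matched genes among the 82 (21.7%). The share was 12.8% of the 3806 matched genes described (489) and 8.09% of all 27025 promoters (2187). Of the 12 ranked genes 9 were matched, and 1 of these, Arfgef2, held it (11.1%). The longer pattern, CACGTG with GT before and AC after it, was found for 3 of the 60 (5%), against 1.26% of the genes described and 0.37% of all promoters. A match is a string of letters in a window and not a shown binding site.

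Levels of several genes named above rose with the 3-gene UMIs, although not evenly from class to class. The classes use the same UMIs that chose the members. Genes called higher in members must differ across the threshold of 3 UMIs, so these values describe the cells and test nothing. Neutrophils under the interferon limit were set in 5 classes, of 0, 1 to 2, 3 to 5, 6 to 9 and 10 or more UMIs of Fnip2, Cc2d2b and Pnpla7. Arfgef2 was at 38.1, 54.9, 71.2, 129 and 266 CPM from the lowest to the highest class in the vehicle donor library. It was at 27.7, 46.2, 92, 243 and 369 CPM in the RvD1 donor and 41.1, 50.9, 81.5, 118 and 192 CPM in the vehicle recipient library. The RvD1 recipient library gave 21, 35.9, 73.5, 41.3 and 165 CPM, where the last 2 classes held 37 and 34 cells. Hexa went from 82.1, 37.3, 60.2 and 34.3 CPM in the lowest class to 233, 163, 215 and 120 CPM in the highest. In the vehicle donor library it was at 82.1, 89.9, 162, 178 and 233 CPM over the 5 classes, with a clear step at the threshold of 3 UMIs. The vehicle recipient library gave a more even rise, at 60.2, 84.5, 124, 165 and 215 CPM. Npc1 was at 26.2, 47.3, 89.8, 90.9 and 148 CPM in the vehicle donor library. The summed lysosome list went from 6094, 5189, 5261 and 4555 CPM to 9764, 10060, 7932 and 7004 CPM, and Fnip1 from 446, 257, 381 and 209 CPM to 988, 667, 1010 and 548 CPM. Il1b, which encodes interleukin-1β, went the other way, from 8840, 8030, 7010 and 7670 CPM to 3360, 3920, 2830 and 4950 CPM.

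**Figure D4:**
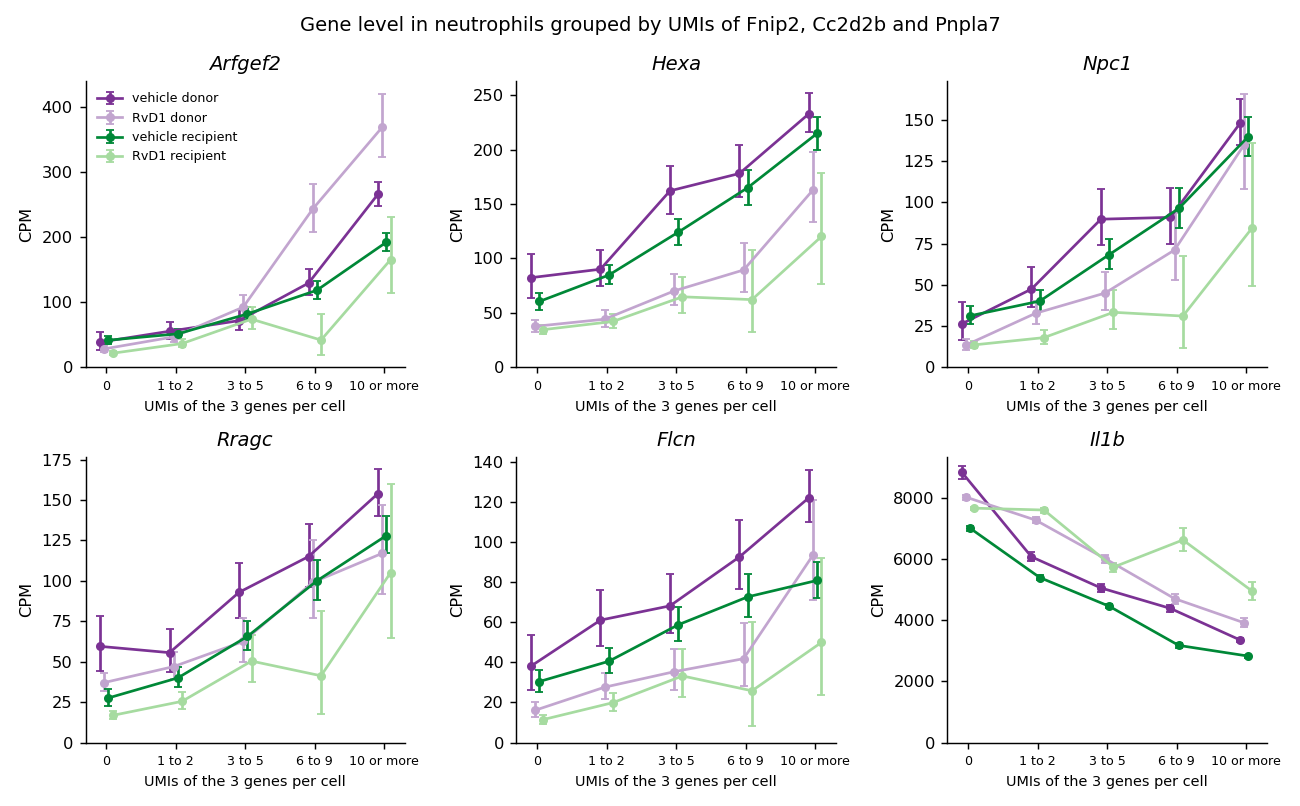
CPM of Arfgef2, Hexa, Npc1, Rragc, Flcn and Il1b in neutrophils grouped by their UMIs of Fnip2, Cc2d2b and Pnpla7 together (5 classes), 1 line per library, with exact 95% intervals for counting error. The first 5 genes are highest in the class of 10 or more UMIs in each library and Il1b is highest in the class of 0.

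Over single neutrophils, the 3-gene CPM was correlated with each of 3139 genes within each library, as a description, since all genes of a cell share its depth. The highest mean Spearman rho belonged to Fnip1 (0.34, 0.30, 0.42 and 0.14) and Ctsd (0.40, 0.33, 0.35 and 0.12), followed by Dedd2, Ankrd33b and Mbnl2 with means of 0.28. The lowest belonged to Il1b, with a mean of −0.27, and the lactate transporter gene Slc16a3, with a mean of −0.21. Values in the RvD1 recipient library were nearest to 0, where 8.567% of neutrophils were members.

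Few genes were lower in member cells. Nfe2 was at 27.6, 42.1, 33 and 41.8 CPM in members against 52.5, 74.1, 58.1 and 65 CPM in others, with log2 ratios of −0.93, −0.82, −0.82 and −0.64. The other 5 were Usp18, Irgm1, Ifih1, Oasl2 and Ddx60, interferon-stimulated genes that follow the rule's limit on Ifit1, Ifit3 and Rsad2. When cells over that limit were also left out of the comparison set, 3 genes were lower, and of the 6 only Nfe2 was among them. Nfe2 was not called with 2 UMIs of the 3 genes in place of 3, nor in cells chosen on Cc2d2b and Pnpla7. The interferon list had 3 of 18 genes lower, beside 0.125% of all genes described. Its medians were −0.97, −0.51, −0.62 and −0.37, and the interferon limit sets these values in part.

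Il1b, Cxcr2 and some granule transcripts were lower in members by less than the call required, while other granule and inflammatory genes went both ways. Il1b was at 4000, 5180, 3470 and 5750 CPM in members against 6870, 7720, 5990 and 7680 CPM in others, and its log2 ratios of −0.78, −0.58, −0.79 and −0.42 missed 1.5-fold in both RvD1 libraries. Retnlg, the resistin-like granulocyte gene, was at 2410, 2690, 8510 and 4350 CPM against 3470, 3810, 11700 and 6340 CPM. Mmp8, the collagenase of the specific granules, was at 145, 309, 585 and 707 CPM against 245, 373, 789 and 864 CPM. The late granule list had 0 of 16 genes called and 8 below 0 in all 4 libraries, beside 897 of the 4788 genes described. The list's medians were −0.55, −0.11, −0.31 and −0.27. Its members did not share 1 direction, since Ngp, which encodes neutrophilic granule protein, had log2 ratios of −1.28, 1.43, −0.46 and −1.29 and Ltf, which encodes lactoferrin, −1.07, 1.25, 0.46 and −1.22. Cxcr2, the receptor that draws neutrophils to CXC chemokines, was at 824, 828, 921 and 1040 CPM against 957, 1180, 1130 and 1240 CPM. Members were lower in Il1b, Retnlg, Mmp8 and Cxcr2 in every library, while the ageing and trafficking list that holds Cxcr2 had 0 of 18 called and medians of 0.00, −0.23, −0.04 and 0.05. Retnlg, Mmp8, Ngp and Ltf were picked after their values had been seen.

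Stress and antioxidant genes included 3 calls. Jun and Atf3, transcription factors induced within minutes of stress, were the 2 of 23 immediate early genes that were higher, beside 1.71% of all genes described. Jun was at 276, 398, 236 and 267 CPM against 166, 175, 139 and 107 CPM, and Atf3 at 327, 302, 268 and 148 CPM against 217, 111, 172 and 69.4 CPM. A single member cell held up to 33% of the Jun UMIs and up to 6.34% of the Atf3 UMIs in a library. Fos, the usual partner of Jun, had log2 ratios of −0.99, 0.35, −0.83 and −0.13, so its sign differed between libraries, and the list's medians were −0.16, −0.15, −0.16 and 0.06. Gclc, the catalytic subunit of the enzyme that limits glutathione synthesis, was the 1 of 16 antioxidant and haem genes called (against the same 1.71%), at 50.5, 52.1, 29.3 and 31.7 CPM against 25.7, 19.7, 14.7 and 16.8 CPM (list medians 0.13, 0.08, 0.18 and 0.21). For Gclc, 1 member cell held up to 21.3% of the UMIs in a library.

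No member of 12 further lists was called in either direction. Autophagy had 0 of 22, with medians of 0.01, −0.05, −0.02 and −0.02, although Sqstm1, the cargo receptor p62, had ratios of 0.45, 0.58, 0.52 and 0.52. Glycolysis and hypoxia had 0 of 23 (−0.23, −0.08, −0.12 and −0.08), with 11 genes below 0 in all 4 libraries, beside 897 of the 4788 genes described. The respiratory chain had 0 of 28 (−0.19, 0.03, −0.13 and −0.01). These 3 lists lay within 0.23 of 0 in every library. Survival and death genes had 0 of 16 (0.05, −0.10, 0.09 and 0.05), NADPH oxidase and extracellular trap genes 0 of 8 (−0.01, −0.16, −0.09 and −0.02), and eicosanoid enzymes 0 of 6 (−0.22, −0.20, −0.34 and 0.22). The TNF and NF-kB list had 0 of 19 (−0.03, −0.38, 0.05 and −0.04) and the interleukin-1 and inflammasome list 0 of 12 (0.00, −0.40, −0.09 and 0.01). Inflammatory medians were thus lowest in the RvD1 donor library. Inflammatory chemokines had 0 of 7 (0.09, −0.04, 0.42 and 0.73), of which 3 (Ccl3, Ccl4 and Ccl9) were above 0 in all 4 libraries, beside 18.6% of all genes described. Ccl3 was at 625, 830, 309 and 869 CPM against 589, 572, 198 and 183 CPM, with up to 41.7% of its UMIs from 1 member cell. Heat shock genes had 0 of 7 (−0.10, 0.40, −0.22 and 0.41), ciliary transition zone genes 0 of 2 described of 15 listed, and early granule and cycling genes 0 of 1. Of the genes named from earlier results as lower with RvD1 in neutrophils, 1 of 4 was called, Hmox1, beside 1.71% of all genes described (medians 0.66, 0.60, 0.49 and 0.90), and of those named as higher 0 of 1. These last lists came from the same libraries and are no independent evidence.

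Donor and recipient members differed in the same granule genes as other neutrophils did. Retnlg was at 2410 and 2690 CPM in donor members and at 8510 and 4350 CPM in recipient members, and Mmp8 at 145 and 309 CPM against 585 and 707 CPM. Both genes were lower in the donor members with no overlap, and the other neutrophils had the same order. Further genes of the late granule list went the other way, also in other neutrophils. Ngp was at 1160 and 1730 CPM in donor members and at 76.6 and 44.7 CPM in recipient members. Ltf was at 256 and 338 against 9.57 and 10.1 CPM, and Chil3 at 224 and 500 against 7.74 and 21.6 CPM. All were picked after their values had been seen, and the share of all genes without overlap was not counted. A comparison of origin lies within 1 software version.

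The last comparison set RvD1 against vehicle within member cells of each origin, where a gene needed at least 100 UMIs over the 2 libraries. Among donor members 155 of 5164 genes were at least 2-fold higher with RvD1 (3%) and 254 lower (4.92%), and among recipient members 239 of 5388 were higher (4.44%) and 274 lower (5.09%). Both origins shared 44 higher (0.882%) and 105 lower (2.11%) of 4988 genes. The 44 became 27 without cells holding monocyte or macrophage UMIs and 23 with called doublets removed. In other neutrophils 13 of 5447 were higher in both origins (0.239%) and 108 lower (1.98%). Of the 105 genes lower in members, 49 were also lower in other neutrophils (49 of 108), and of the 44 higher, 6 were (6 of 13). Only 77 of the 105 and 42 of the 44 were described in both classes of cells and could be called in both. Every ratio of RvD1 to vehicle compares libraries that differ in Cell Ranger version too, and the cause was not tested.

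Genes that marked member cells were mostly lower with RvD1 inside the member cells as well. Of the 82 genes, 65 had a log2 ratio below 0 in both origins and 5 above 0 in both. At 2-fold, 15 were lower in both and 0 were higher, beside 2.11% lower and 0.882% higher of all genes described. The share of all genes below 0 in both origins was not counted. The median of the 82 genes was −0.61 in donor and −0.68 in recipient members, beside 0.07 and 0.13 over all genes, and it was −0.81 and −0.92 in other neutrophils. These genes were called from cells chosen on the 3 genes, and members with RvD1 held fewer UMIs of those. The median member held 5 (donor) and 4 (recipient) with RvD1, against 10 and 7 with vehicle. The part of this choice in the lower values was not tested. The 3 genes of the rule, which chose the cells, were at log2 ratios of −0.51 and −0.21 (Fnip2), −1.0 and 0.28 (Cc2d2b) and −0.78 and −1.31 (Pnpla7) within members, beside −1.69 and −2.76, −3.98 and −3.16, and −1.67 and −1.55 in other neutrophils. Flcn was at 50.6 CPM with RvD1 and 103 CPM with vehicle in donor members, and at 34.6 and 71.2 CPM in recipient members. Of the lysosome list, 4 of 30 genes were called lower (beside 2.11% of all genes described) and 0 higher (medians −0.18 and −0.23). They were Atp6v1h (82.3 against 235 CPM in donor and 75 against 211 CPM in recipient members), Atp6v1c1 (114 against 229 and 61.3 against 175 CPM), Hexa (96.7 against 204 and 72.1 against 171 CPM) and Gla, the lysosomal alpha-galactosidase (168 against 347 and 141 against 285 CPM). Dtnbp1 had ratios of 0.05 (−0.16 to 0.25) and −0.11 (−0.42 to 0.18), whose intervals hold 0. Arfgef2 was at 0.06 (−0.09 to 0.21) among donor members and −0.72 (−1.01 to −0.44) among recipient members. Plcb1, ranked first against other neutrophils, was higher with RvD1, at 115 against 27.6 CPM in donor and 42.5 against 26.7 CPM in recipient members. Up to 50.8% of its UMIs in a library came from 1 member cell.

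**Figure D5:**
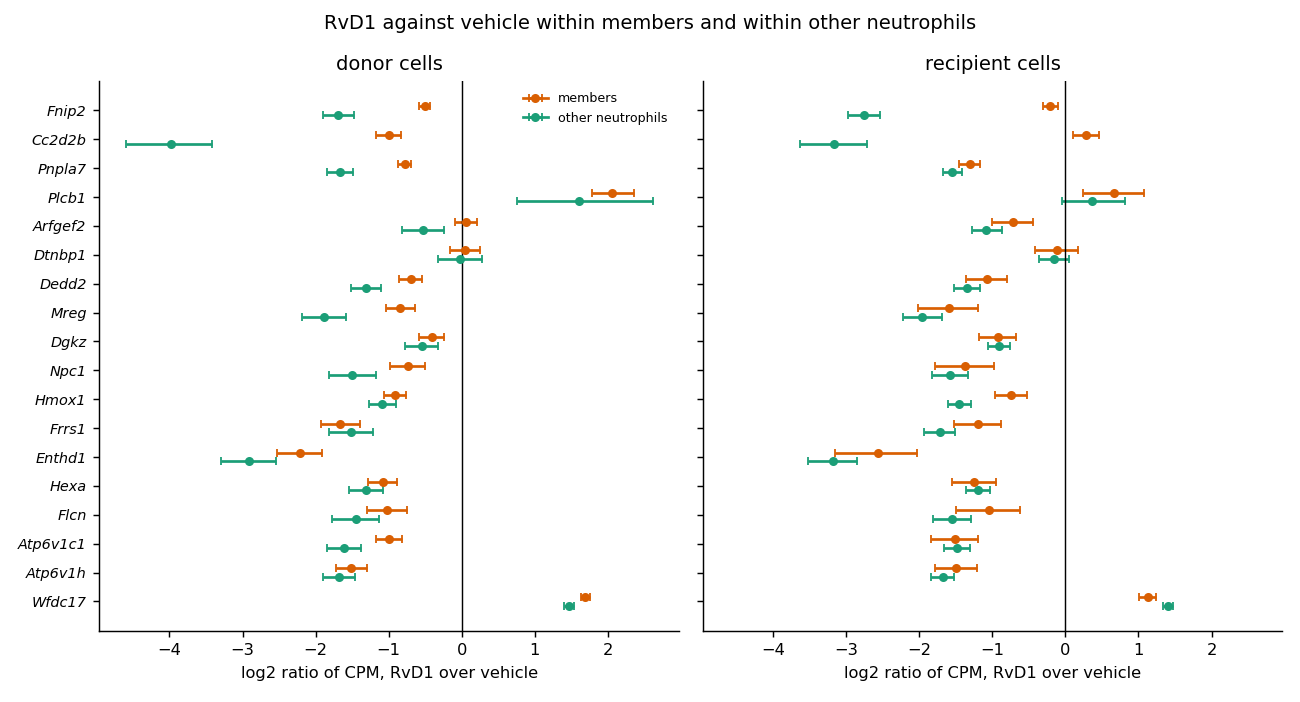
Log2 ratio of CPM, RvD1 over vehicle, in donor and recipient cells, for Fnip2, Cc2d2b and Pnpla7, ranked higher genes and 4 further genes, in member cells and in other neutrophils, with exact 95% intervals for counting error. Most genes lie left of 0 in both classes, Dtnbp1 lies at 0.05 and −0.11 in members, and Plcb1 and Wfdc17 lie right of 0.

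The genes furthest down with RvD1 in members were Slc8a2, Enthd1, Atp6v0d2, Myl4, Qtrt1, Atg4c, Trcg1 and Fpgs. Slc8a2, a sodium-calcium exchanger, was at 5.54 CPM with RvD1 and 42 CPM with vehicle in donor members, and at 7.21 and 39.8 CPM in recipient members. UMIs of it were found in 9 members with RvD1 and 123 with vehicle among donor cells, and in 8 and 197 among recipient cells. Qtrt1, a subunit of the enzyme that puts queuine into transfer RNA, was at 10.7 against 47.2 CPM and 7.93 against 33.6 CPM, and Fpgs, which adds glutamates to folate, at 13.3 against 53.5 CPM and 7.93 against 40.5 CPM. No single cell held more than 27.3% of the members' Qtrt1 or Fpgs UMIs in a library. Atp6v0d2, a membrane-sector subunit of the proton pump, was at 9.23 against 41.3 CPM and 0.721 against 10.3 CPM, but UMIs were found in 3 donor and 1 recipient member cells with RvD1. Of the 11 described genes of the list named from earlier results as lower with RvD1, 5 were called (medians −1.13 and −0.94), beside 2.11% of all genes described. This list is not independent.

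Of the 8 genes furthest up with RvD1 in members, Vcan, S100a4 and Ms4a6c are known from monocytes and macrophages. For these, 1 cell held up to 88.9%, 54.7% and 56.8% of the UMIs in a members' library. Vcan was at 192 against 15 CPM in donor and 41.8 against 6.52 CPM in recipient members, with a UMI in 14 and 9 donor and in 6 and 10 recipient member cells. With cells left out that held a UMI of the 9 monocyte and macrophage genes, Vcan being one of them, Ms4a6c was at 2.93 against 2.94 CPM and 3.94 against 0.945 CPM. S100a4 was at 214 against 25.3 CPM and 101 against 17.5 CPM with all members (log2 ratios 3.08 and 2.53). Without those cells it was at 28.9 against 8.41 CPM and 4.72 against 1.26 CPM, with ratios of 1.78 (1.2 to 2.38) and 1.91 (0.21 to 3.43). Nme2 then had ratios of 1.03 and 0.45. Zfp143, Supv3l1 and Cadm4 had both ratios above 1 without those cells. Zfp143, a transcription factor of many promoters, was at 31.8 against 11.5 CPM and 39.6 against 11.1 CPM with all members, and its ratios in other neutrophils were 1.40 and 1.37. Supv3l1, a mitochondrial RNA helicase, was at 33.2 against 10.7 CPM and 33.9 against 9.57 CPM, with ratios of −0.80 and 0.12 in other neutrophils. Cadm4, a cell adhesion molecule, was at 25.1 against 8.14 CPM in donor members and 50.5 against 14.2 CPM in recipient members, while other neutrophils held 0.396 against 13.2 CPM and 2.18 against 13.3 CPM. The difference between the 2 classes of cells was not tested.

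Of the fixed lists, a single gene each was higher with RvD1 in both origins in 5, beside 0.882% of all genes described. Wfdc17, a whey acidic protein of myeloid cells and the 1 described gene of those named from earlier results as higher, was at 2160 against 671 CPM in donor and 604 against 276 CPM in recipient members, and its ratios of 1.69 and 1.13 were beside 1.47 and 1.40 in other neutrophils. Pla2g4a, the phospholipase that frees arachidonic acid, stands in both the lysophospholipid list (1 of 16) and the eicosanoid list (1 of 8) and had ratios of 1.23 and 1.36. The others were Chil3 of the late granule list (1 of 16; 1.16 and 1.48), also an alveolar macrophage marker, with up to 36.7% of UMIs from 1 cell, and Hk1 of the glycolysis list (1 of 23; 1.24 and 1.62), with up to 33.1% from 1 cell. In other neutrophils the donor and recipient ratios were 0.52 and 0.30 for Pla2g4a, −1.97 and 2.19 for Chil3, and −0.05 and 0.55 for Hk1. In the folliculin list 1 of 20, Flcn, was lower (beside 2.11% of all genes described), and the remaining 14 lists had no gene called. Nlrp3, the inflammasome sensor, was at 855 against 2140 CPM in donor and 1120 against 1650 CPM in recipient members, which missed 2-fold among recipient cells.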

How the data were processed

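The deposited matrices hold unnormalised UMI counts, which the authors made with Cell Ranger (7.0.1 for both RvD1 libraries, 6.1.1 for both vehicle libraries), per the file headers. The submitters' processing notes name the build mm10 and Seurat 4.0.0. Libraries used the 10x 3' v3 kit, per the labels' protocols. The 4 libraries held 5743, 5195, 5987 and 7836 barcodes and 61294707, 44338340, 42199775 and 49967935 UMIs (donor cells with vehicle and with RvD1, then recipient cells with vehicle and with RvD1). The sources used here do not say whether donor and recipient libraries share lungs. Pairs of libraries shared 4 to 15 barcodes, 1 of them a member cell in both.

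Barcodes under 200 genes or over 10% mitochondrial UMIs were removed, which left 24291. UMIs were summed over cells of a class and library and scaled to CPM. Ratios are log2 without a pseudocount, with a floor of 3 counts for 0 and exact binomial 95% intervals. Shares have exact Clopper-Pearson intervals. Genes described by name were the 12 highest and 12 lowest by smallest ratio (6 were lower), the 8 higher and 8 lower with RvD1, up to 4 genes of each of 22 lists and 6 correlated genes. Mitochondrial, ribosomal, haemoglobin, sex-linked and receptor segment genes and unnamed models were not ranked. A few genes that met the rule are not reported here. Members and lists were chosen with earlier results of these data known. Scrublet (scanpy 1.11.5, 0.8% per 1000 cells) marked 13, 11, 6 and 8 members as doublets, kept except in an alternative. Alternatives were other UMI limits, scalings, depth matching and leaving out libraries or cells. The 38 shared symbols were counted per identifier. Positions are from GENCODE M21 on GRCm38. On simulated counts for the comparison of members with others (4788 genes), 96% of 2-fold changes and 100% of 3-fold changes were recovered. Python 3.11.15, numpy 2.4.6, scipy 1.17.1, pandas 2.3.3, anndata 0.12.19, scikit-learn 1.9.0 and matplotlib 3.10.9 were used.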

Additional observations from a re-analysis of the deposited data

Results flagged for a closer look

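In member cells, Ccl5, a chemokine for T cells, was lower with RvD1 among donor cells (log2 ratio −1.26) and higher among recipient cells (2.64), the intervals of the 2 ratios lying on opposite sides of 0. In 1 library a single member cell held up to 63.2% of the Ccl5 UMIs. Ccl5 was at 295, 123, 61.8 and 385 CPM in members (donor cells with vehicle and RvD1, recipient cells with vehicle and RvD1). Natural killer cells also express it, and their 5 markers summed to 172, 83.5, 38.6 and 188 CPM in the same cells, in the same order. Their part in the Ccl5 values was not tested.

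Cadm4 was higher with RvD1 in member cells, with log2 ratios of 1.63 among donor and 1.83 among recipient cells, and lower in other neutrophils, with −5.06 and −2.61. It was found in few cells: 19 RvD1 and 20 vehicle member cells of donor origin, and 22 and 50 of recipient origin. In the RvD1 libraries 3 and 8 other neutrophils held a UMI of it.

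Hsp90ab1, a cytosolic chaperone, was lower in members than in other neutrophils with vehicle (−0.20 in donor and −0.26 in recipient cells) and higher with RvD1 (0.69 and 0.41). Seen the other way, it was higher with RvD1 within members (0.53 and 0.43) and lower with RvD1 within other neutrophils (−0.35 and −0.25). With 1 library per group, none of these differences between groups was tested.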

How the results depend on the processing

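Under 37 of 151 checks of the main counts and shares the value moved, 114 stayed within the limit set for them, and none changed direction. With 2 UMIs in place of 3, the member shares were 74.0%, 33.0%, 61.0% and 15.3% (donor cells with vehicle and RvD1, recipient cells with vehicle and RvD1), and with 5 UMIs 54.0%, 14.8%, 37.8% and 3.58%. Thinning gave 73.3%, 35.1%, 60.5% and 19.4%, and S100a8 and S100a9 at 5% of UMIs gave 48.7% in vehicle recipient cells. The vehicle shares stayed above the RvD1 shares of the same origin under each.

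Of the 82 genes higher in members, 28 were among 31 called when cells were chosen on Cc2d2b and Pnpla7. Other settings gave 57 to 108. With 2 UMIs of the 3 genes in place of 3 there were 57 and with 5 UMIs 62, and in each case only 48 were among the 82. Without cells holding monocyte or macrophage UMIs, an alternative chosen after seeing the data, there were 86 (72 shared). Leaving out 1 library gave 103 to 125. The 6 lower genes became 10 at 50 UMIs, 12 for cells chosen on Fnip2 and Cc2d2b, 1 for Cc2d2b and Pnpla7, 3 without cells over the interferon limit, and 9 to 20 with 1 library left out, where fewer libraries need to pass (13 without vehicle donor, 20 without RvD1 donor, 9 without vehicle recipient and 15 without RvD1 recipient cells).

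With RvD1, donor members had 345 higher and 392 lower genes at 50 UMIs and 65 and 156 at 200 UMIs. Recipient members had 497 and 444 at 50 UMIs and 101 and 176 at 200 UMIs, and 142 higher under median-of-ratios scaling and 131 with called doublets removed. In both origins, 86 were higher at 50 UMIs, 13 at 200 UMIs, 29 under median-of-ratios scaling, 23 with doublets removed and 27 without cells holding monocyte or macrophage UMIs, against 44 here. The 105 lower genes ranged from 71 to 151. The UMI minimum changes the number of genes described; otherwise the cause was not tested.

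No paired analysis was possible because each group is 1 library and the labels carry no replicate numbers. The smallest class of member cells, RvD1 recipient, held 251 cells and 1387432 UMIs.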
